A study of Mus musculus with 6 samples.

Results

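The transcription factors described here are 10 that build the duct, the pancreas and the foregut: Sox9, Hnf4a, Foxa1, Foxa2, Foxa3, Gata4, Gata6, Onecut1, Onecut2 and Prox1. They were taken by name: probe sets annotated with exactly one of these symbols were used, 23 of the 45037 tested, and each gene is represented by its brightest set among the 18193 genes measured. The cells were mPAC L20, a line of mouse pancreatic duct origin. Every sample received an adenovirus with Neurog3 under the CMV promoter. It was preceded by an adenovirus with a hairpin, which was scrambled in 3 samples (shControl) and directed at Atoh8 in the other 3 (shAtoh8). Each virus was given at a multiplicity of infection of 40 and culture lasted another 44 to 46 h, per the labels' protocols. The samples of a group are independent experiments, and no sample without Neurog3 or without a hairpin virus was analysed, so the levels below are those of doubly infected cells.

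In the embryo, these factors mark and shape the epithelium from which the pancreas buds. The forkhead factors Foxa1 and Foxa2 open closed chromatin in the gut endoderm, Gata4 and Gata6 act beside them, and Sox9 keeps the pancreatic progenitors and later the duct cells. Onecut1 acts in the progenitors before Neurog3 and binds the Neurog3 gene, and Hnf4a is a nuclear receptor of liver, gut and islet. Neurog3 starts endocrine differentiation in this epithelium, and Atoh8 is another basic helix-loop-helix factor. The question here is whether the Atoh8 hairpin moves these factors in cells that are also given Neurog3.

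None of the 10 factors passed the test of shAtoh8 against shControl. In limma, 0 of 10 had an adjusted p under 0.05 (lowest 0.160), against 1.15% of all genes, and 2 had an unadjusted p under 0.05 (Hnf4a and Onecut1), against 17.5% of all genes. With the replicate number as a block, 0 of 10 passed, against 4.67% of all genes (2.75% lower and 1.92% higher). The groups did not overlap for 2 of the 10, against 24% of all genes, and all 3 pairs ran one way for 6 of the 10, against 45.5% of all genes. Over only 10 genes, these shares lie too close to the background to set the factors apart. Their median log2 fold change was -0.05 and their median absolute change 0.09, beside 0.01 and 0.11 over all genes. Of the 23 probe sets, 0 passed in either fit, against 0.802% of all probe sets in limma and 3.42% with the block. An unadjusted p under 0.05 was found for 4 of 23 (2 sets of Hnf4a and 1 each of Onecut1 and Onecut2), against 13.8% of all probe sets. Probe sets of the same gene were read on the same arrays and are not independent.

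**Figure D1:**
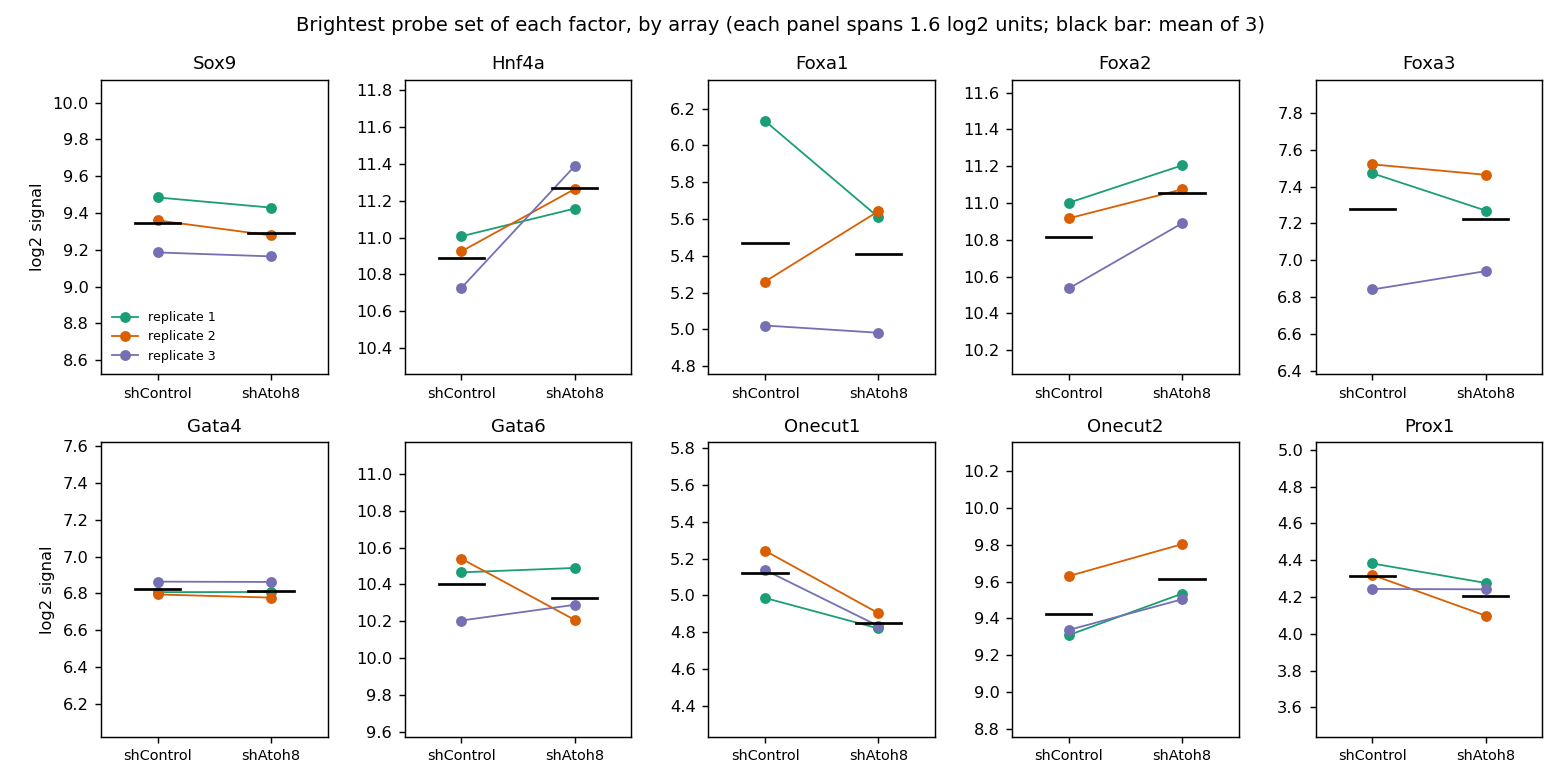
The log2 signal of the brightest probe set of each factor on the 6 arrays, with lines joining arrays of the same replicate number and black bars for the means of 3. Each panel spans 1.6 log2 units. The groups are apart for Hnf4a and Onecut1 and overlap for the other factors.

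Several of the factors were bright in shControl, and others lay in the dim part of the array. Brightness depends on the probes as well as on the transcript, so the percentiles given here place each probe set among all 45037 and do not order the genes by abundance. Hnf4a (mean log2 signal 10.89, percentile 95.9), Foxa2 (10.82, percentile 95.7) and Gata6 (10.40, percentile 94.0) were the brightest. Onecut2 (9.43, percentile 87.7) and Sox9 (9.34, percentile 87.1) followed. Foxa3 (7.28, percentile 67.9) and Gata4 (6.82, percentile 64.0) lay above the median probe set, which read 5.51. Foxa1 (5.47, percentile 49.4), Onecut1 (5.12, percentile 44.3) and Prox1 (4.32, percentile 29.0) lay below it, and for these a true level cannot be told from background, since the deposited values carry no detection call.

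A list of duct markers was read beside the duct label of the line. The keratins Krt8, Krt18 and Krt19 read 13.85, 13.79 and 13.43 in shControl, above the 99th percentile of probe sets. Krt7 read 10.78, and the epithelial cadherin Cdh1 read 11.94. These keratins and Cdh1 are made in other epithelia as well, so their levels do not test the duct label. Some markers of mature duct were dim, among them the chloride channel Cftr (3.70) and the water channel Aqp5 (5.25). As a description of brightness alone, which does not rank cell types, the median shControl signal was 4.99 over 8 acinar genes, 5.47 over 9 endocrine, 4.87 over 10 mesenchyme, 4.68 over 7 blood and endothelial and 5.02 over 8 hepatocyte genes. It was 7.93 over the 26 genes listed as duct markers or linked to Sox9, a list that also holds Onecut1, Lgr5 and the cartilage genes Col2a1 and Acan. In limma, 0 genes of these lists passed, and 7 had an unadjusted p under 0.05, against 17.5% of all genes. They were 5 of the 26 duct and Sox9 genes (Car2, Epcam, Krt7, Lgr5 and Onecut1), 1 of 8 acinar (Cela1) and 1 of 9 endocrine (Iapp). The mesenchyme, blood and endothelial and hepatocyte lists had 0. Within their own lists the smallest p-values were those of the elastase Cela1 (0.37 ± 0.14 SE, adjusted p = 0.291) and Ptf1a (0.16 ± 0.09, 0.505) among acinar genes, Vim (-0.11 ± 0.08, 0.645) and Acta2 (0.10 ± 0.08, 0.717) in mesenchyme, and Kdr (0.18 ± 0.10, 0.531) and Cd68 (-0.36 ± 0.25, 0.622) in blood and vessel. The mesenchymal filament gene Vim read 13.85 and the collagen Col1a1 4.88. Single liver and gut genes were also bright, such as the gut lectin Lgals4 (12.88), the gut cadherin Cdh17 (11.46), the glucose transporter Slc2a2 (11.20) and transthyretin, Ttr (9.96). The median over the 26 listed genes that Hnf4a and the Foxa factors activate was only 5.485, close to the median probe set (5.512).

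The targeted gene had a lower mean in shAtoh8 and did not pass the test. Over replicates 1, 2 and 3, Atoh8 had log2 signals of 8.75, 8.29 and 7.52 with the scrambled hairpin and of 7.83, 7.90 and 7.37 with its own, a log2 difference of -0.49 ± 0.30 (SE; limma adjusted p = 0.573, and 0.157 with the replicate block). It was lower in each of the 3 pairs, and the groups overlapped. The difference was -0.21 without shControl replicate 1 and -0.82 without shControl replicate 3. Neurog3, which every sample received, had opposite signs on its probe sets: the brighter one (1432034_at) was lower in all 3 pairs, by log2 differences of -0.67, -0.58 and -0.46. Their mean of -0.57 ± 0.48 (SE) did not pass in limma (adjusted p = 0.706) and passed once replicate number was blocked (0.0330). The dimmer one (1422312_a_at) read 0.18 ± 0.17 and did not pass in either (0.751 and 0.40). Leaving out an array moved the brighter set from -0.99 (shControl replicate 3) to -0.16 (shControl replicate 1). On the control probe sets, shAtoh8 replicate 2 had the widest gap between the actin sets of the 3' and the 5' end. It was 0.354 log2 units there and 0.107 to 0.202 on the other arrays. The hybridisation spikes of shAtoh8 replicate 2 averaged 9.90, against 10.24 to 10.48. Whether its RNA was degraded was not tested.

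Sox9, the SOX factor that maintains pancreatic progenitors and marks duct cells, had a difference smaller than the spread of its replicates. Its brightest probe set, 1451538_at, read 9.48, 9.36 and 9.19 in shControl and 9.43, 9.28 and 9.16 in shAtoh8. The arrays of replicate 3 were the lowest in both groups, and the groups overlapped almost wholly. The log2 fold change was -0.05 ± 0.11 (SE; limma adjusted p = 0.912), with a 95% interval from -0.31 to 0.21. All 3 pairs were lower in shAtoh8, but by only -0.06, -0.08 and -0.02. The other sets of Sox9 read -0.12 (1424950_at) and -0.11 (1433889_at), so all 3 had a negative sign. The sign of the brightest set turned when an array was left out (0.02 without shControl replicate 1 and 0.01 without shAtoh8 replicate 3).

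Hnf4a, a nuclear receptor that drives liver and gut genes and is also made in islet cells, had the smallest p of the 10. Set 1427001_s_at read 11.01, 10.93 and 10.73 in shControl and 11.16, 11.26 and 11.39 in shAtoh8. Every shAtoh8 array lay above every shControl array, by the least between the replicate 1 arrays. Group means of 10.89 ± 0.14 and 11.27 ± 0.12 (SD, n = 3) gave a log2 difference of 0.38 ± 0.11 (SE) or 1.30-fold, with a limma adjusted p of 0.160 (0.147 with the block). The 95% interval of this difference, not adjusted for the number of genes, ran from 0.14 to 0.63. Within replicate numbers 1, 2 and 3 the difference was 0.15, 0.34 and 0.66. Over all 18193 genes, 793 had a more positive fold change.

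The other 3 probe sets of Hnf4a were positive too, at 0.36 (1421983_s_at), 0.55 (1427000_at) and 0.32 (1450447_at), and none passed. Set 1427000_at read 9.85, 10.03 and 9.51 in shControl and 10.26, 10.17 and 10.61 in shAtoh8, again without overlap. Set 1421983_s_at read 10.15, 10.13 and 10.05 in shControl and 10.56, 10.10 and 10.75 in shAtoh8. There the array of shAtoh8 replicate 2 fell among the controls while the other shAtoh8 arrays lay above them, and set 1450447_at showed the same layout (8.97, 9.02 and 8.85, against 9.37, 8.88 and 9.55). This is the array with the wide actin gap. Without it the values were 0.55 (limma adjusted p = 0.0812) for 1421983_s_at, 0.51 (0.10) for 1450447_at, 0.64 (0.187) for 1427000_at and 0.39 (0.251) for 1427001_s_at. With shAtoh8 replicate 3 left out instead, the sets in the same order read lower, at 0.22 (limma adjusted p = 0.655), 0.18 (0.754), 0.42 (0.398) and 0.32 (0.364). The part of RNA quality in these differences was not tested. As the mean of its 4 sets, Hnf4a read 0.40 higher (adjusted p = 0.157).

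**Figure D2:**
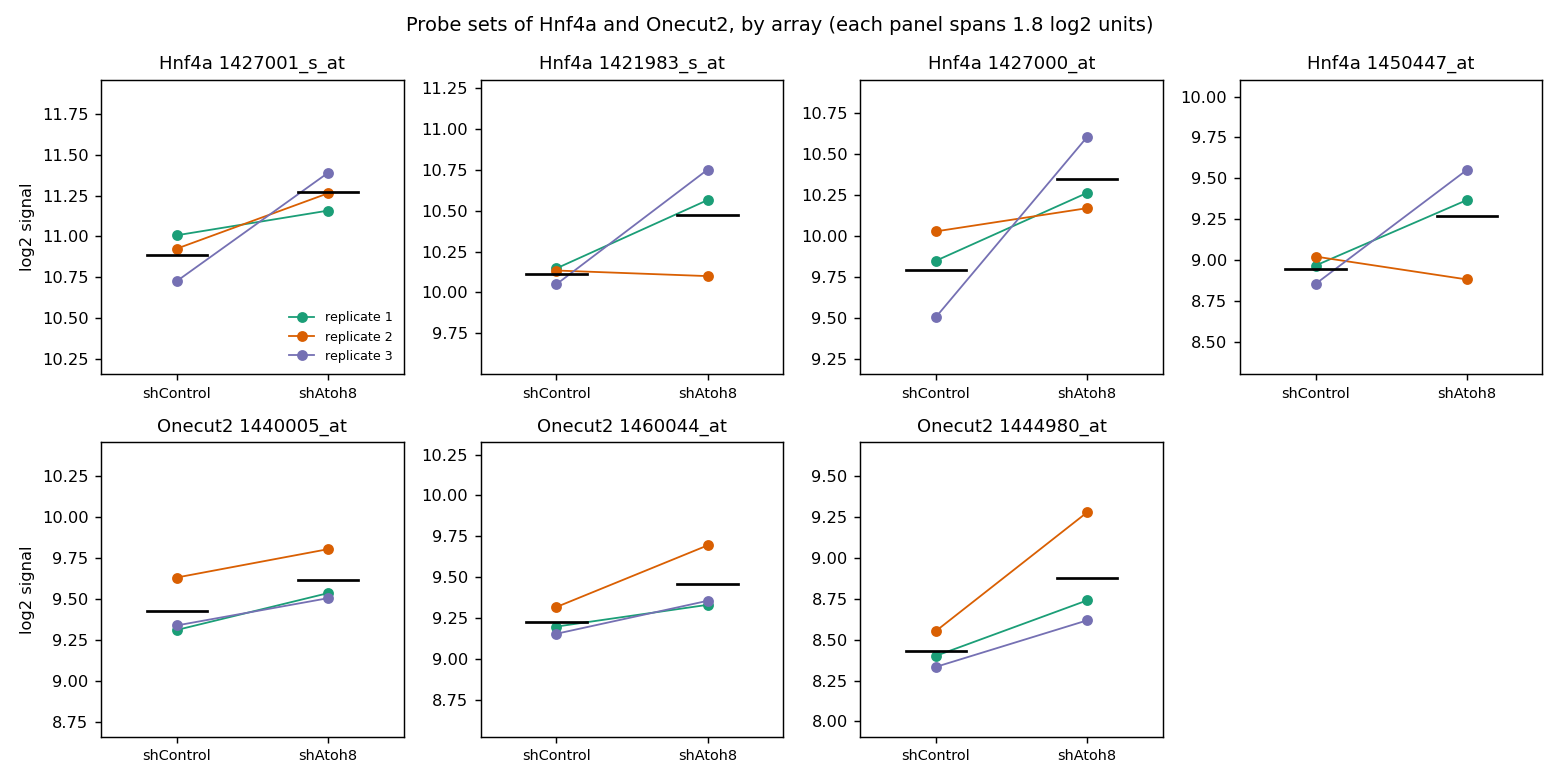
The log2 signal of the 4 probe sets of Hnf4a and the 3 of Onecut2 on each array, with lines joining arrays of the same replicate number and black bars for means of 3. All 7 means are higher in shAtoh8, by 0.19 to 0.55. On 2 of the Hnf4a sets the replicate 2 pair runs the other way.

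The genes whose 6 values lay closest to those of Hnf4a, by the root mean square difference after each gene's mean was removed, were Ppt1, Sppl2b and Sar1b (0.0366, 0.0372 and 0.0395 log2 units over 6 arrays). Ppt1, a lysosomal thioesterase, read 8.89, 8.82 and 8.70 in shControl and 9.11, 9.23 and 9.34 in shAtoh8. The log2 fold changes were 0.43 for Ppt1, 0.33 for the intramembrane protease Sppl2b and 0.42 for Sar1b, a GTPase of the COPII coat. None of them passed limma (adjusted p = 0.0981, 0.207 and 0.0971).

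Hnf4a has 2 annotated starts in the RefSeq promoter table (GRCm38.p6), 40.3 kb apart, and in mouse and human the upstream one is the promoter known from pancreatic cells and the downstream one the promoter known from adult liver. Whether the probe sets read one or both forms was not analysed. The 250 bases before each start were searched for motif letters of the other factors described here. Capitals mark motifs of the factors themselves, searched on both strands. For forkhead factors the letters were TGTTTNC. The Onecut factors were searched with ATCAAT. For the GATA factors the search used AGATAA. The SOX letters were ACAAAG.
Hnf4a upstream start, chr2:163506607-163506856, plus strand: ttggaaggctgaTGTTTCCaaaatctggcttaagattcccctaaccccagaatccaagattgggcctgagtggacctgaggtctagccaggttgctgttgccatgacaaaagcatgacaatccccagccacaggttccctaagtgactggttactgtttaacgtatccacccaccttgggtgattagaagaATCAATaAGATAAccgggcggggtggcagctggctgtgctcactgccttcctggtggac
Hnf4a downstream start, chr2:163546905-163547154, plus strand: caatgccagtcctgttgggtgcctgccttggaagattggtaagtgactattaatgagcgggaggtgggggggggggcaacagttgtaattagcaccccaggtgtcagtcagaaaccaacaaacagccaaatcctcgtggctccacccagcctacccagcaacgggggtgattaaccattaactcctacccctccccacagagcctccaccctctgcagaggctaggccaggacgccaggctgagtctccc
The upstream window held a forkhead, an Onecut and a GATA motif, the Onecut and GATA letters beside each other, from -59 to -54 and from -52 to -47 counted from the start. The downstream window held none of these letters. Of all 32851 promoter windows of this length, 17.8% held the forkhead letters, 6.72% the Onecut letters, 9.99% the GATA letters and 16.5% the SOX letters. A match describes the sequence and not binding.

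The forkhead factors differed in level and in spread, and none passed the test. Foxa2, the member needed for foregut and islet development, read 11.00, 10.92 and 10.54 in shControl and 11.20, 11.07 and 10.89 in shAtoh8 on its single probe set. Replicate 3 was the lowest array of both groups and the groups overlapped. The mean log2 difference was 0.24 ± 0.14 (SE; limma adjusted p = 0.564), and all 3 pairs were higher, by 0.20, 0.16 and 0.35. With the replicate block the interval narrowed to between 0.03 and 0.45, and the adjusted p was 0.210.

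Foxa1, which shares the pioneer role of Foxa2 in endoderm, was dim and varied more than any other of the 10 factors. It read 6.13, 5.26 and 5.02 in shControl and 5.61, 5.64 and 4.98 in shAtoh8. The shControl arrays alone spanned more than 1 log2 unit, with replicate 1 far above the others. The log2 fold change was -0.06 ± 0.30 (SE; adjusted p = 0.967), the interval ran from -0.77 to 0.65, and the sign turned to 0.27 without shControl replicate 1 and to 0.15 without shAtoh8 replicate 3. The error of this gene was thus the widest of the 10.

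Foxa3, a member expressed in liver and gut, read 7.47, 7.52 and 6.84 in shControl and 7.27, 7.46 and 6.94 in shAtoh8. Its replicate 3 arrays were again the lowest of each group. The pairs differed in sign (-0.20, -0.06 and 0.10), and the log2 fold change was -0.05 ± 0.21 (SE; adjusted p = 0.955).

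The GATA factors bind the same core motif and act together in early pancreas. Gata6 read 10.47, 10.54 and 10.20 in shControl and 10.49, 10.21 and 10.29 in shAtoh8 on set 1425464_at. The groups overlapped, and 2 pairs were higher (0.02 and 0.09) while the replicate 2 pair was lower (-0.33). The mean difference was -0.07 ± 0.12 on the log2 scale (SE; adjusted p = 0.876). Set 1425463_at was also most negative in the replicate 2 pair (0.14, -0.37 and -0.01 in the 3 pairs), and the dimmer 1443081_at was positive (0.09). Without shAtoh8 replicate 2 the 3 sets read -0.01, 0.03 and 0.18.

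Gata4 was the steadiest of the 10 across arrays. Set 1418863_at read 6.81, 6.79 and 6.86 in shControl and 6.81, 6.78 and 6.86 in shAtoh8, so all 6 arrays lay within 0.0867 log2 units. The groups differed by -0.01 ± 0.07 on the log2 scale (SE; adjusted p = 0.988), with an interval from -0.18 to 0.17. Its other set, 1418864_at, was higher in all 3 pairs (0.08, 0.13 and 0.17) and did not pass (0.13 ± 0.10, adjusted p = 0.705).

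The cut-homeodomain factors read in opposite directions, and neither passed. Onecut1 (HNF6) read 4.99, 5.24 and 5.14 in shControl and 4.82, 4.90 and 4.83 in shAtoh8 on set 1450252_at. The groups were apart and all 3 pairs were lower, by -0.17, -0.34 and -0.30. The log2 fold change was -0.27 ± 0.09 (SE; adjusted p = 0.244, and 0.156 with the block), with an interval from -0.49 to -0.05 not adjusted for the number of genes. Both probe sets of Onecut1 were dim, and the other one, 1421447_at, had the opposite sign (0.08 ± 0.08, adjusted p = 0.778). As their mean the gene read -0.09.

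The promoter of Onecut1 is shown because Neurog3 and Atoh8 belong to the basic helix-loop-helix class, whose members bind the E-box CANNTG, and Onecut1 and Hnf4a were the factors whose groups did not overlap on the brightest probe set. Capitals mark CANNTG in the 250 bases before the start (RefSeq, GRCm38.p6).
Onecut1, chr9:74861671-74861920, plus strand: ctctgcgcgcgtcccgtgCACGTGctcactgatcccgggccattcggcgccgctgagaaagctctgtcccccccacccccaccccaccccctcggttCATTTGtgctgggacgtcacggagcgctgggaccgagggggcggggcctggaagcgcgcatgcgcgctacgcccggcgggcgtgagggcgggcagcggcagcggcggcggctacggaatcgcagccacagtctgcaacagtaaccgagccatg
The window held 2 E-boxes, and 66.2% of all promoter windows of this length held at least 1. The upstream window of Hnf4a held 1 and the downstream window 2. E-boxes were not particular to these genes: a window of Prox1 held 2, and windows of Foxa1, Foxa2 and Foxa3 held 1. Forkhead letters were also in windows of Prox1 and Foxa1, and Onecut and GATA letters in windows of Foxa2. SOX letters were in windows of Prox1, Foxa1 and Foxa2. In all, 6 of the 10 factors had windows in the table that were searched, 10 windows together.

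Onecut2, which is expressed with Onecut1 in pancreatic progenitors, was bright and positive on all 3 of its probe sets. Set 1440005_at read 9.31, 9.63 and 9.34 in shControl and 9.54, 9.80 and 9.50 in shAtoh8. Replicate 2 was the highest array in each group, so the groups overlapped although all 3 pairs were higher, by 0.23, 0.17 and 0.17. The mean log2 difference was 0.19 ± 0.13 (SE; adjusted p = 0.611, and 0.281 with the block). Set 1460044_at read 0.24 ± 0.12 and set 1444980_at 0.45 ± 0.17 (adjusted p = 0.451 and 0.304), both without overlap of the groups. The difference on 1444980_at, where the pairs read 0.34, 0.73 and 0.28, was 0.25 without shAtoh8 replicate 2 (adjusted p = 0.394), the array with the wide actin gap. Without it the other sets read lower differences too, 1440005_at 0.09 (adjusted p = 0.847) and 1460044_at 0.12 (0.706), and the part of RNA quality was not tested.

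Prox1, a homeobox factor of early pancreas, liver and lymphatic vessels, was the dimmest of the 10. It read 4.38, 4.32 and 4.24 in shControl and 4.28, 4.10 and 4.24 in shAtoh8 on set 1437894_at. The groups overlapped, and the log2 fold change was -0.11 ± 0.09 (SE; adjusted p = 0.686). The other sets read -0.07 (1421336_at) and 0.04 (1457432_at).

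**Figure D3:**
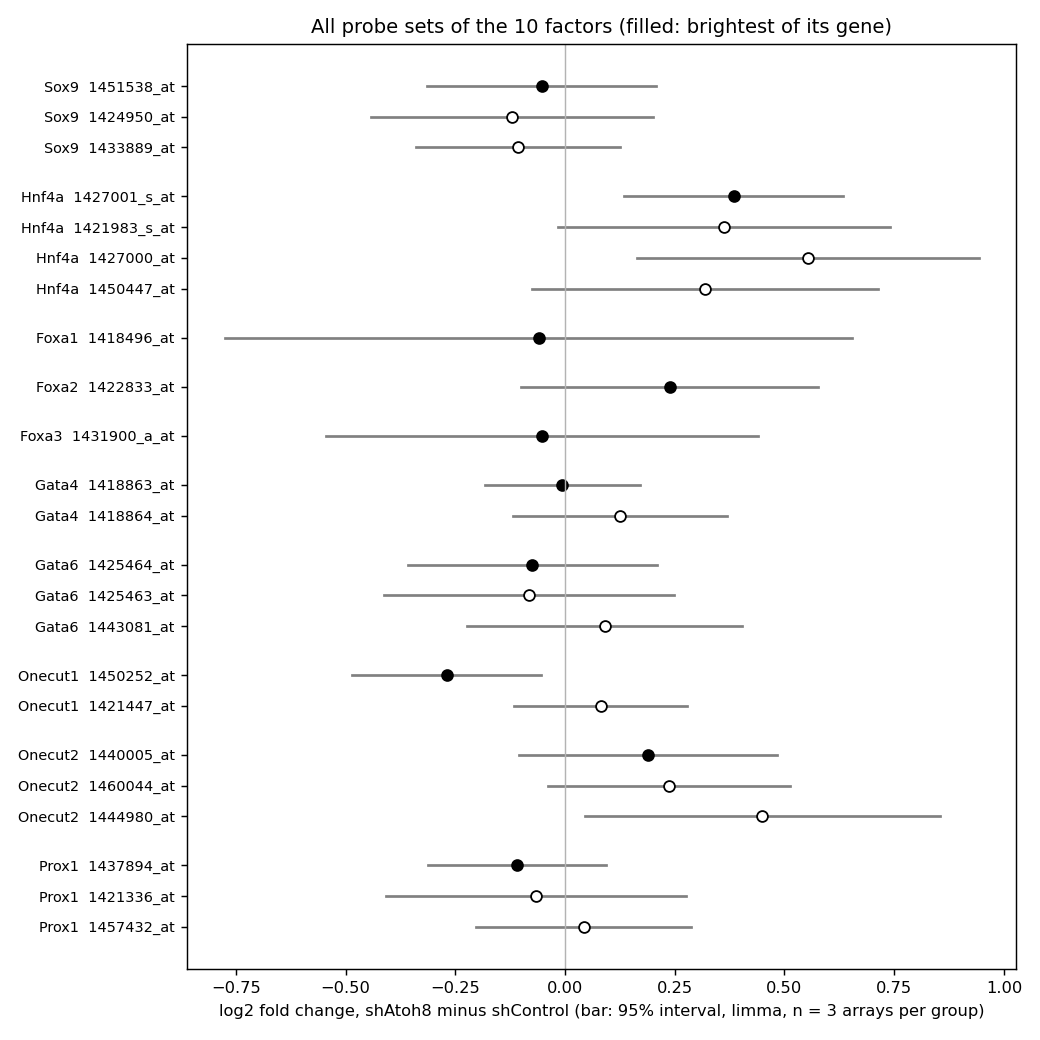
Log2 fold changes of shAtoh8 minus shControl for all 23 probe sets of the 10 factors, with 95% intervals from limma that are not adjusted for the number of probe sets. Filled points mark the brightest set of a gene. The sets of Hnf4a and Onecut2 all lie above 0, while those of Gata4, Gata6, Onecut1 and Prox1 lie on both sides.

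Related genes of the same families were read beside the 10. Of 9 paralogs, 0 passed limma (3 had an unadjusted p under 0.05), and with the replicate block 1 fell, Gata3, and 1 rose, Gata5. Of all genes, 17.5% had an unadjusted p under 0.05, and with the block 2.75% fell and 1.92% rose. Gata3, a GATA factor of T cells and some epithelia, was dim and read -0.66 ± 0.15 (SE; limma adjusted p = 0.105, and 0.0361 with the block), with pairs at -0.45, -0.67 and -0.86. Gata5, an endoderm and heart GATA factor, read 0.64 ± 0.15 (adjusted p = 0.114, and 0.0396 with the block), with pairs at 0.40, 0.69 and 0.84. Its other probe set read 0.72 ± 0.17 and missed the threshold with the block (0.0591). Of 8 GATA cofactors and partners, 0 passed in either fit (1 at an unadjusted p under 0.05). The LIM-domain binding cofactor Ldb1 read 0.46 ± 0.11 (adjusted p = 0.126, and 0.0547 with the block) and the GATA cofactor Zfpm1 0.22 ± 0.12 (adjusted p = 0.497).

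Other duct, progenitor and foregut factors gave a similar picture. Of 27 measured, 0 passed limma and 6 had an unadjusted p under 0.05, against 17.5% of all genes. As the mean of probe sets per gene 2 of the list passed, and with array weights 1, where 459 and 339 of all 18193 genes did. A single gene fell once replicate numbers were blocked, against 2.75% of all genes. The gene was Tcf7l2, the nuclear partner of beta-catenin, at -0.82 ± 0.15 (SE; limma adjusted p = 0.0679, and 0.0189 with the block). All 3 pairs were lower, by -0.92, -0.77 and -0.75. Its 4 probe sets were all negative, and 1 of them, 1425229_a_at, fell in limma without the block as well (-0.65 ± 0.10, adjusted p = 0.0481). The median log2 fold change of the list was 0.01.

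**Figure D4:**
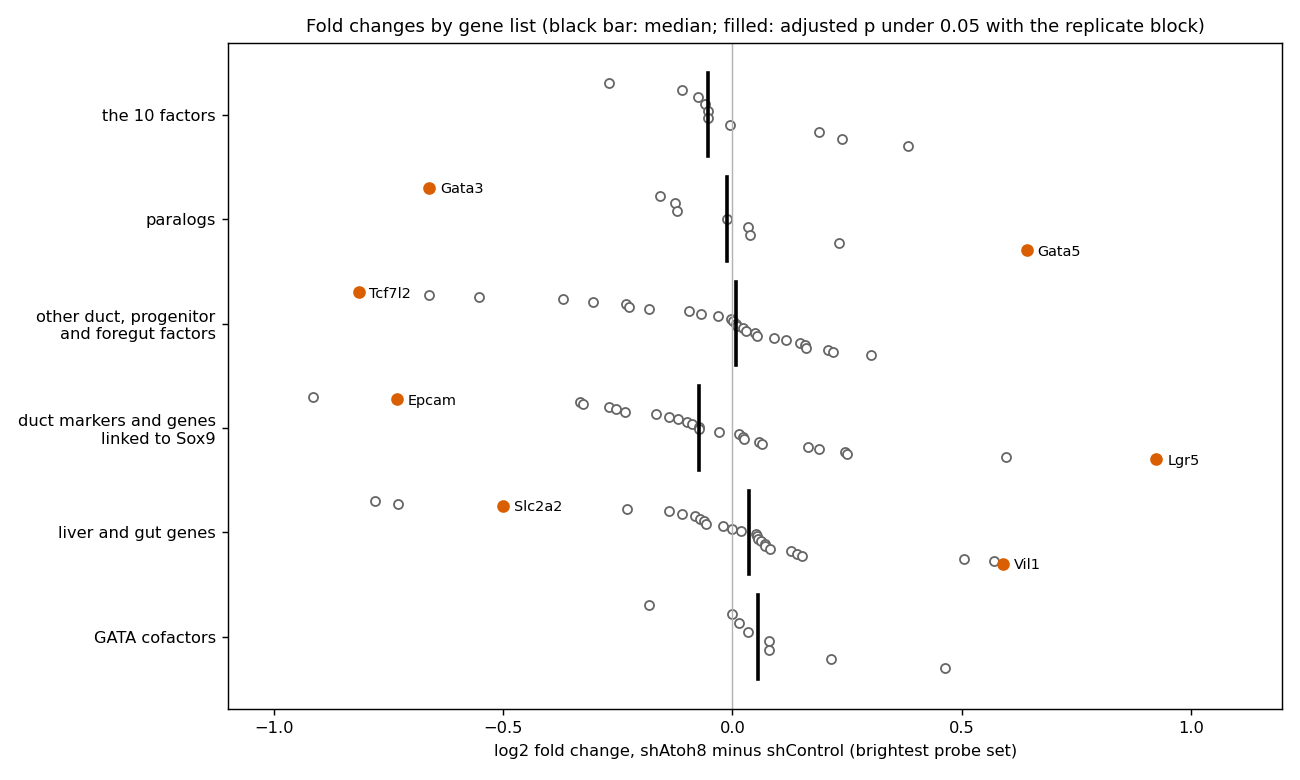
Log2 fold changes of the brightest probe set of each gene in 6 lists, with black bars for the medians. Filled and named points passed with the replicate block: Gata3, Tcf7l2, Epcam and Slc2a2 were lower and Gata5, Lgr5 and Vil1 higher. None of the 10 factors is among them.

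Genes that lie downstream of the factors in other settings were described in the same way. Among 26 duct markers and genes linked to Sox9, 0 passed limma (5 at an unadjusted p under 0.05, against 17.5% of all genes), and the median log2 fold change was -0.07. With the replicate block, 1 fell and 1 rose, against 2.75% and 1.92% of all genes. The epithelial adhesion gene Epcam fell (-0.73 ± 0.19 SE; adjusted p = 0.145, blocked 0.0463), while its dimmer probe set read 0.05. The stem cell receptor gene Lgr5 rose (0.92 ± 0.39; 0.353, blocked 0.0411), and its dimmer set read 0.01.

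Of 26 liver and gut genes that Hnf4a and the Foxa factors activate, 0 passed limma (1 at an unadjusted p under 0.05, against 17.5% of all genes) and the median was 0.04. With the block 1 rose, the microvillus gene Vil1 (0.59 ± 0.20 SE; adjusted p = 0.235, and 0.0404 when blocked), and 1 fell, the glucose transporter gene Slc2a2 (-0.50 ± 0.43; 0.717, and 0.0497 with the block). Vil1 was higher in all 3 pairs, by 0.45, 0.51 and 0.81, and Slc2a2 lower in all 3, by -0.56, -0.32 and -0.63. With arrays left out 1 at a time Slc2a2 ranged from -0.87 to -0.07. Apoa1, a lipoprotein gene also listed as a hepatocyte marker, read -0.73 ± 0.38 on its brightest set (adjusted p = 0.480, blocked 0.0547), and its other 3 sets were lower with the block (0.0191, 0.0262 and 0.0458). The clotting gene Fgb was dim and read -0.14 ± 0.10 (adjusted p = 0.650).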

How the data were processed

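Expression was measured on 6 Affymetrix arrays, 3 per group. The deposited table holds a log2 signal for each probe set and array, which the authors made with RMA in affy (per the submitters' processing notes). This method puts all arrays on one distribution, so a shift common to most genes cannot be seen. The RMA version and any genome build were not given in the sources used here. Precision is limited by the number of arrays. The 64 control probe sets were left out and 45037 tested without a filter. Names came from the platform annotation: 34945 probe sets had 1 symbol, 932 several and 9160 none.

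The groups were compared with limma 3.58.1 in R 4.3.3 (lmFit, eBayes, 4 residual and 3.30 prior degrees of freedom), two-sided, with Benjamini-Hochberg adjustment over 45037 probe sets and a threshold of 0.05. The code was tested on simulated data. The sample titles number the replicates and state no pairing between the groups. Deviations from group means correlated at 0.407, 0.187 and 0.433 within numbers and at -0.351 to 0.0292 between them. Deviations within a group sum to 0, so positive values within numbers push those between numbers down. This contrast therefore cannot establish a pairing. The fit with the number as a block is given as an alternative beside calls it changes.

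The members, lists and motifs were chosen with earlier results of these data known. All members were named with every probe set, and in other lists the genes that passed either fit (at most 8), or the 2 with the smallest p. The 3 genes nearest to a member were named for those that passed, or else for the one with the smallest p. Alternatives covered normalization, centring, brightness, variance model, weights, probe sets, threshold and left-out arrays. Promoter sequences are RefSeq's (GRCm38.p6), cut to the 250 bases before each start.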

Additional observations from a re-analysis of the deposited data

How the results depend on the processing

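None of the 10 factors passed in limma under any of the 15 other settings (0, with 2 at an unadjusted p under 0.05 in the fit to all arrays), nor in the 3 fits with the replicate block that left out both arrays of a number, which were chosen after the data were seen. With 1 array left out, between 0 and 115 of all 18193 genes passed, so a count of 0 among 10 says little there. None of the 23 probe sets passed under the 11 alternatives run on each. Of all probe sets, 0.802% passed in limma on all arrays and 3.42% with the block. The positive values of Hnf4a, Foxa2 and Onecut2 and the negative values of Gata6, Onecut1 and Prox1 kept their sign in the 14 or 15 settings run on each gene, the fits without both arrays of a number not counted. Several of these settings changed only the test and left the fold change as it was, so a kept sign there was fixed in advance. Among the probe sets, a positive set stood beside 2 negative ones for Gata6 (0.09) and Prox1 (0.04) and beside 1 for Onecut1 (0.08). Hnf4a ranged from 0.30 to 0.55, with adjusted p from 0.118 to 0.364, Onecut1 from -0.34 to -0.09, Foxa2 from 0.10 to 0.33 and Onecut2 from 0.09 (without shAtoh8 replicate 2) to 0.29. The sign turned for Sox9, Foxa1, Foxa3 and Gata4 with arrays left out, and the cause was not tested. With arrays left out 1 at a time, Sox9 ranged from -0.132 to 0.0179, Foxa1 from -0.285 to 0.271, Foxa3 from -0.272 to 0.0889 and Gata4 from -0.0292 to 0.0153. Gata4 was also positive with quantile normalization repeated (0.0180), with array weights (0.00417) and as the mean of its probe sets (0.0598). With the block and without both arrays numbered 1, Foxa1 read 0.172 and Foxa3 0.0215, and without both numbered 2, Gata6 read 0.0547.

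The count of all genes called, the background for these results, was 210 in the fit to all arrays. It was 849 with the replicate block, 324 with brighter probe sets only, 339 with array weights, 459 as the mean of probe sets per gene and 691 at an adjusted p under 0.1. Leaving out 1 array gave between 0 genes (shControl replicate 2) and 115 genes (shAtoh8 replicate 2), and with the block it was 0, 962 and 0 without both arrays numbered 1, 2 and 3. The calls of Gata3, Gata5, Epcam, Lgr5, Vil1 and Slc2a2 exist only with the replicate block among the 11 alternatives run on their brightest probe sets. That of Tcf7l2 was made in 2 of 11.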

Other observations

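The arrays of replicate 3 were the lowest in both groups for 4 of the 10 factors (Sox9, Foxa1, Foxa2 and Foxa3), a pattern looked for after the values were seen. The same held for 20.9% of all 18193 genes, against 12.3% for replicate 1 and 12.2% for replicate 2. Neurog3 was also lowest in replicate 3 of each group on its brighter probe set, at 7.45, 6.64 and 5.79 in shControl and 6.78, 6.06 and 5.33 in shAtoh8, as was Atoh8. The brighter and the dimmer Neurog3 set lay at percentiles 62.2 and 58.6 in shControl, and whether either reads the viral transcript was not tested. Whether the viral dose differed between experiments was not tested.

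Iapp, the islet amyloid gene used here as an endocrine marker, was lower on all 4 of its probe sets. It fell on 2 of them in limma without the block (1423510_at, -1.76 ± 0.26 SE, adjusted p = 0.0407; 1456004_x_at, -0.67 ± 0.10, adjusted p = 0.0414), while its brightest set did not pass (-1.78 ± 0.39, adjusted p = 0.0965, and 0.0189 with the block).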
